A study of Homo sapiens with 12 samples.

Results

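HAL, AGXT and ASS1 encode 3 enzymes of amino acid metabolism that liver cells near the portal vein hold in larger amounts than cells near the central vein. They were chosen by name, for their place in liver zonation, and are 3 of the 14884 genes tested. RNA of HepG2 cells, an established line grown from a human liver tumour, was read on 12 Affymetrix arrays. Exon 3 of CTNNB1, the β-catenin gene, is deleted on 1 allele of these cells in every group, controls included, so that a truncated β-catenin without the phosphorylation sites for its turnover is made beside the full-length protein. Cells were treated with a small interfering RNA (siRNA) and sampled at 120 h, in 4 groups of 3 arrays. sißCat-WT targets full-length β-catenin, sißCat-mut the truncated form and sißCat-both the 2 forms together, and siCtrl is the control siRNA. Each of the 3 was designed as an siRNA of its own, so sißCat-both is not stated to be a mixture of the other two. The comparisons ask how expression changes when either form, or both, is depleted.

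In the liver, blood runs from the portal to the central vein, and hepatocytes divide their work along that path. Cells on the portal side break down amino acids and pass the nitrogen to the urea cycle, while the last cells before the central vein capture leftover ammonium as glutamine. Wnt/β-catenin signalling is high around the central vein, and in mouse liver it switches on the genes of that zone and holds back portal genes, so a rise of portal genes would be predicted where β-catenin is lost. HAL (histidine ammonia-lyase) removes the amino group of histidine in the first step of its breakdown. AGXT (alanine-glyoxylate aminotransferase) is the peroxisomal enzyme that turns glyoxylate into glycine and so keeps it from becoming oxalate. ASS1 (argininosuccinate synthase) joins citrulline and aspartate in the urea cycle.

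In the RefSeq annotation of GRCh38.p14, HAL lies on the minus strand of chr12:95972662-95996344, AGXT on the plus strand of chr2:240868824-240880500 and ASS1 on the plus strand of chr9:130444707-130501274. Each gene had 1 probe set on the array. ASS1 has 14 pseudogenes on 11 chromosomes in the same annotation, near-identical copies whose RNA could add to its signal, so its values are uncertain to that extent. The 250 bases before the RefSeq start of each gene are shown because the 3 genes differ in them, with matches to 5 motifs, searched on either strand, in capitals: CTTTGA (TCF/LEF, the partners of β-catenin on DNA), CAAAGTCCA (HNF4), TTNNGCAA (C/EBP), GTTAAT (HNF1) and TGACG (the core of the cyclic AMP response element, CRE).
HAL (GRCh38.p14, chr12:95996345-95996594, minus strand): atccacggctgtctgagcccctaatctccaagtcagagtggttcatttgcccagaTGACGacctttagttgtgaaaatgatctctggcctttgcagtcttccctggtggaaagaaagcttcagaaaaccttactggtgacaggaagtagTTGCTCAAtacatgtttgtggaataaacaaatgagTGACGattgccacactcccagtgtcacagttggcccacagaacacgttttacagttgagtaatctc
AGXT (GRCh38.p14, chr2:240868574-240868823, plus strand): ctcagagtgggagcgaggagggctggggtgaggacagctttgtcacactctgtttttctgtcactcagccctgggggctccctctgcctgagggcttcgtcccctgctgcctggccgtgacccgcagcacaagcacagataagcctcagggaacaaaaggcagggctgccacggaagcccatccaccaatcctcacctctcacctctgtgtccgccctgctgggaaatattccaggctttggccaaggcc
ASS1 (GRCh38.p14, chr9:130444457-130444706, plus strand): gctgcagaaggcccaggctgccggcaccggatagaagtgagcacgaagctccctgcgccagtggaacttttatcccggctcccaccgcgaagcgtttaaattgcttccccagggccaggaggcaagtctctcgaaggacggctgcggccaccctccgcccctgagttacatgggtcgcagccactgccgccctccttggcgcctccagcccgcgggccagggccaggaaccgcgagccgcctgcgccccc
The HAL window held TGACG at 195 and at 66 bases before the start and, on the opposite strand, TTNNGCAA at 101 bases, and these matches did not overlap. The AGXT window held no match, nor did this ASS1 window or the window of a second ASS1 start at chr9:130444711-130444960, so CTTTGA and CAAAGTCCA were in none of them. Of all 35116 RefSeq promoter windows of this length 21.2% held TGACG, 9.05% TTNNGCAA, 11.2% CTTTGA, 6.23% GTTAAT and 0.325% CAAAGTCCA. The HAL window had 45.6% G and C, against 61.2% for AGXT, 68.4% for this ASS1 window and a median of 58% over all windows.

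The values are log2 intensities, so a difference of 1 is a doubling. The array medians over all probe sets lay between 4.71 and 4.78. Levels near or under them are called the array floor here, although single values ran down to 1.628. Changes from or to such levels can be compressed and are given on the log2 scale alone. Replicate arrays correlated across genes at r = 0.994 to 0.997. The probe sets of CTNNB1 were not analysed here, so the extent of each knockdown is unknown and the groups rest on the labels. The labels speak of triplicates without naming separate cultures, so the p-values reflect only how far these arrays scatter, and that scatter may be technical. Of 11 hepatocyte markers 9 were measured, with mean log2 levels per array of 11.03 to 11.18 after sißCat-WT, 11.80 to 11.87 after sißCat-mut, 11.76 to 11.86 after sißCat-both and 11.24 to 11.30 after siCtrl. Where 10.2% of all genes were called after sißCat-WT, 25.6% after sißCat-mut and 33.6% after sißCat-both, 0 of the 9 rose and 2 fell after sißCat-WT (FGA and FGB), 7 rose and 0 fell after sißCat-mut, and 8 rose and 0 fell after sißCat-both. Their part in the results below was not tested, and in such bulk RNA fewer cells of a kind cannot be told from less RNA per cell. The 4 measured endothelial markers (of 6) had mean levels of 4.003 to 4.35 over all arrays, under every array median, and the 2 measured stellate cell markers (of 7) had 4.49 to 5.18. The 5 measured macrophage markers (of 6) had mean levels of 5.60 to 6.02. This mean is raised by CD68, with group means of 9.86 to 10.51, while CD163 had 3.17 to 3.53, under every array median. Of the 5, 1 rose after sißCat-WT (CD14), 1 after sißCat-mut (CD68) and 3 after sißCat-both (CD14, CSF1R and CD163). Of 5 measured cholangiocyte markers (of 6) 1 rose and 1 fell after sißCat-WT (KRT19 and EPCAM), and SPP1, SOX9 and EPCAM fell after both sißCat-mut and sißCat-both. Of the 4 endothelial markers VWF alone passed the test, rising by 0.33 after sißCat-mut and 0.37 after sißCat-both, and 0 of the 2 stellate cell markers passed it in any knockdown.

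HAL, at the head of histidine breakdown, had the widest span of the 3 enzymes. As with AGXT, the 2 form-specific siRNAs moved HAL in opposite directions. Its log2 levels were 4.56, 5.08 and 5.05 on the sißCat-WT arrays, 10.13, 10.30 and 9.81 on the sißCat-mut arrays, 7.999, 8.16 and 8.43 on the sißCat-both arrays, and 5.51, 5.59 and 6.19 on the siCtrl arrays. The 4 groups did not overlap, and the sißCat-WT arrays sat at the array floor, with HAL above 47.1%, 55.4% and 55.5% of their probe sets. Group means were 4.90 ± 0.29 after sißCat-WT, 10.08 ± 0.25 after sißCat-mut, 8.20 ± 0.22 after sißCat-both and 5.76 ± 0.37 after siCtrl (SD, n = 3 arrays each). The order was thus lowest after sißCat-WT, then siCtrl, then sißCat-both, and highest after sißCat-mut, and each step between neighbours passed the test. HAL also varied most within groups: its residual SD was 0.29, higher than in 98.2% of genes, against a median of 0.121.

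AGXT, the glyoxylate-detoxifying enzyme, was lowest after sißCat-WT and stood at similar levels after sißCat-mut and sißCat-both. Its log2 levels were 7.60, 7.03 and 7.01 on the sißCat-WT arrays, 9.55, 9.40 and 9.37 on the sißCat-mut arrays, 9.78, 9.49 and 9.66 on the sißCat-both arrays, and 8.77, 8.44 and 8.53 on the siCtrl arrays. The sißCat-mut and sißCat-both arrays overlapped, and every other pair of groups was separate. The means were 7.21 ± 0.33 after sißCat-WT, 9.44 ± 0.10 after sißCat-mut, 9.64 ± 0.15 after sißCat-both and 8.58 ± 0.17 after siCtrl (SD, n = 3 arrays each). In order, sißCat-WT lay below siCtrl and siCtrl below the sißCat-mut and sißCat-both groups, and the difference between those last groups did not pass the test. All AGXT levels were well above the array floor. The first array had the highest AGXT level of its group in every group.

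ASS1, the urea cycle enzyme, had the narrowest span. Its log2 levels were 9.28, 9.13 and 8.88 on the sißCat-WT arrays, 9.89, 9.88 and 9.52 on the sißCat-mut arrays, 10.48, 10.41 and 10.41 on the sißCat-both arrays, and 9.73, 9.78 and 9.55 on the siCtrl arrays. The sißCat-mut arrays spanned the siCtrl arrays, while the sißCat-WT arrays were all lower and the sißCat-both arrays all higher. The means were 9.10 ± 0.20 after sißCat-WT, 9.76 ± 0.21 after sißCat-mut, 10.44 ± 0.04 after sißCat-both and 9.69 ± 0.12 after siCtrl (SD, n = 3 arrays each), so that sißCat-mut and siCtrl, the middle groups in the order, did not differ beyond their spread. On the third array ASS1 was lowest of its group after sißCat-WT, after sißCat-mut and after siCtrl.

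**Figure D1:**
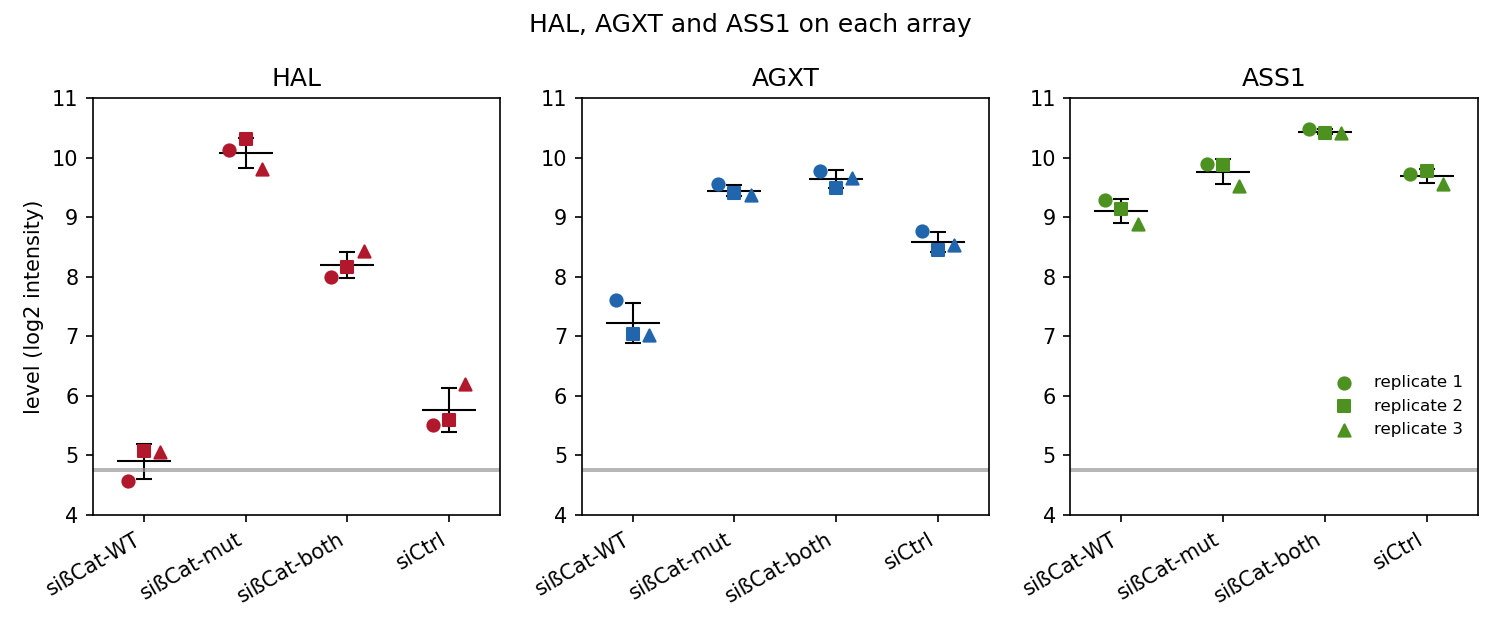
Log2 intensity (vertical axis) of HAL, AGXT and ASS1 on each of the 12 arrays, by siRNA group; points are arrays, black bars are group means ± SD (n = 3) and the grey band spans the array medians over all probe sets, 4.71 to 4.78. HAL lies at the band after sißCat-WT and near 10 after sißCat-mut, AGXT is lowest after sißCat-WT, and ASS1 is highest after sißCat-both.

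After knockdown of full-length β-catenin all 3 enzymes were lower than after siCtrl, while a rise would be predicted from zonation. AGXT fell 2.58-fold (log2 difference -1.37 ± 0.14, SE of the fit with n = 3 arrays per group, as in all that follows, limma adjusted p = 6.50e-05). ASS1 fell 1.51-fold (-0.59 ± 0.12, limma adjusted p = 0.00509), and HAL differed by -0.87 ± 0.19 (limma adjusted p = 0.0110), ending at the floor where its size is uncertain. In this comparison 10.2% of all genes passed an adjusted p of 0.05, 739 of them lower, and in 30.3% the arrays of the groups did not overlap, as in all 3 enzymes. AGXT had the 16th largest fall of the 14884 genes, HAL the 66th and ASS1 the 198th.

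After knockdown of the truncated form HAL and AGXT were higher than after siCtrl and ASS1 did not pass the test. HAL rose by 4.32 ± 0.19 (limma adjusted p = 9.70e-09), the 2nd largest rise of all genes tested. AGXT rose 1.82-fold, by 0.86 ± 0.14 (limma adjusted p = 0.000515), rank 260 among the rises. ASS1 differed by 0.07 ± 0.12, with a 95% interval of -0.18 to 0.33 (limma adjusted p = 0.726), and its arrays overlapped. In this comparison 25.6% of all genes passed the test, 1783 of them higher, and in 40.7% the arrays did not overlap.

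After knockdown of the 2 forms together all 3 enzymes rose, in a comparison where 33.6% of all genes passed the test, 2309 of them higher, and 43.8% had arrays that did not overlap. HAL rose by 2.44 ± 0.19 (limma adjusted p = 5.11e-07), AGXT 2.09-fold, by 1.06 ± 0.14 (limma adjusted p = 5.85e-05), and ASS1 1.68-fold, by 0.75 ± 0.12 (limma adjusted p = 0.000183). The 3 comparisons with siCtrl share the same control arrays, so they are not independent of each other. In the same arrays LGR5 and AXIN2, genes that β-catenin switches on, had log2 differences from siCtrl of -4.49 ± 0.43 and -3.47 ± 0.26 after sißCat-mut and of -3.18 ± 0.43 and -3.02 ± 0.26 after sißCat-both, and each passed the test. After sißCat-WT their differences were -0.03 ± 0.43 and 0.43 ± 0.26, and neither passed. The AXIN2 arrays after sißCat-WT (10.05, 10.10 and 9.97) were nonetheless all higher than those after siCtrl (9.68, 9.50 and 9.65). In that comparison the arrays did not overlap in 30.3% of all genes. The SE rests on the spread in all 4 groups. For AXIN2 the SD was 0.50 after sißCat-mut and 0.63 after sißCat-both, against 0.07 after sißCat-WT and 0.10 after siCtrl.

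Set against each other, the knockdowns ordered the 3 enzymes differently. All 3 were higher after sißCat-mut than after sißCat-WT, HAL by 5.19 ± 0.19, AGXT by 2.23 ± 0.14 and ASS1 by 0.66 ± 0.12 (limma adjusted p = 8.98e-10, 7.62e-08 and 0.000538), where 31.0% of all genes passed the test, 43.2% had arrays that did not overlap and HAL had the largest rise of the genes tested. All 3 were also higher after sißCat-both than after sißCat-WT, by 3.30 ± 0.19, 2.43 ± 0.14 and 1.34 ± 0.12 in the same order (limma adjusted p = 2.23e-08, 2.62e-08 and 7.87e-07), where 36.2% of all genes passed and 44.3% had arrays that did not overlap.

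Between sißCat-both and sißCat-mut the enzymes parted. HAL was lower after sißCat-both, with a log2 difference of -1.88 ± 0.19 (limma adjusted p = 1.42e-05), in a comparison where 22.2% of all genes passed the test and 33.6% had arrays that did not overlap. ASS1 was 1.60-fold higher, by 0.67 ± 0.12 (limma adjusted p = 0.000921). AGXT differed by 0.20 ± 0.14, with a 95% interval of -0.11 to 0.51 (limma adjusted p = 0.388), which does not show equal levels. LGR5 was higher after sißCat-both than after sißCat-mut, by 1.31 ± 0.43 (limma adjusted p = 0.0446), though its arrays overlapped. AXIN2 differed by 0.44 ± 0.26 and did not pass. Whether these siRNAs deplete the truncated form equally was not tested.

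**Figure D2:**
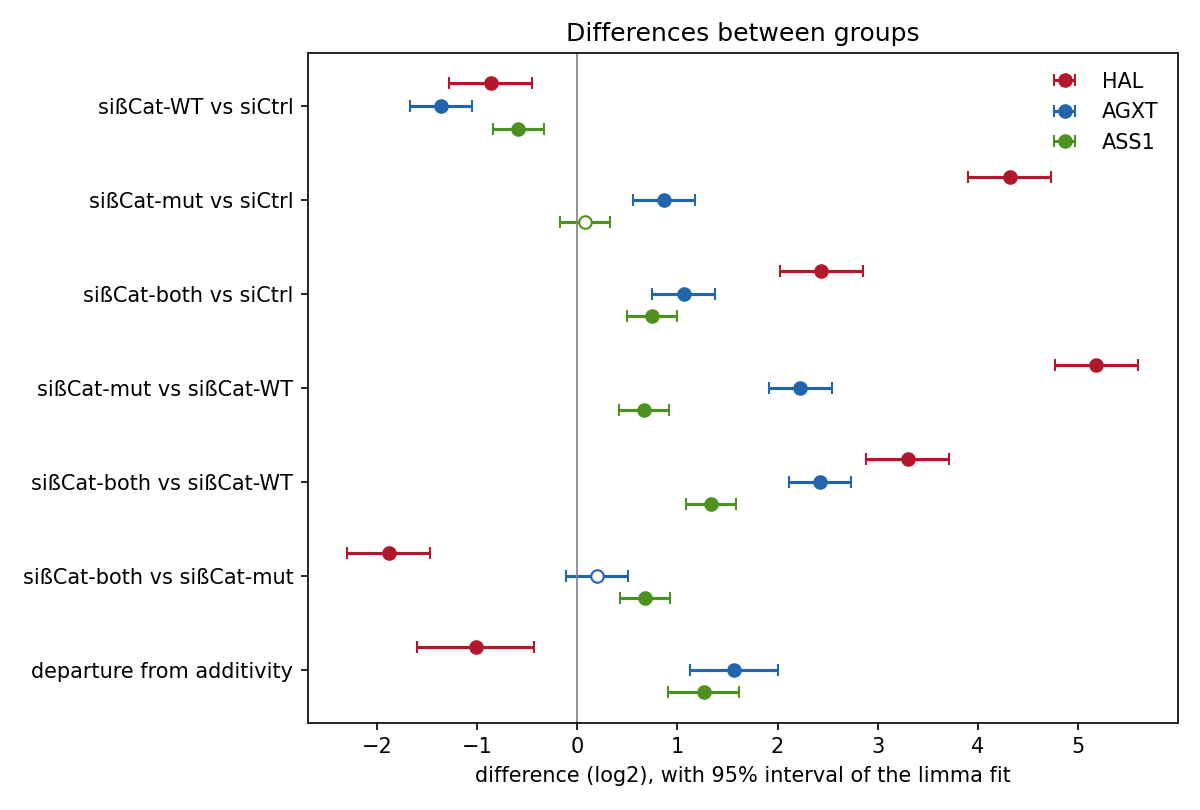
Differences between groups on the log2 scale (horizontal axis) for HAL, AGXT and ASS1 in 6 pairs of groups and in the departure from additivity (sißCat-both minus sißCat-WT minus sißCat-mut plus siCtrl); bars are 95% intervals of the limma fit, and open points did not pass an adjusted p of 0.05. HAL spans from -1.88 to 5.19, and the open points are ASS1 after sißCat-mut against siCtrl (0.07) and AGXT after sißCat-both against sißCat-mut (0.20).

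The changes after the 2 form-specific siRNAs did not sum to the change after sißCat-both for any of the 3 enzymes. For HAL the sum was 3.46 and the change after sißCat-both 2.44, a departure of -1.02 ± 0.27 (limma adjusted p = 0.0209). This call rests on few arrays: the adjusted p was between 0.0540 and 0.0552 without siCtrl replicate 1 or 2, sißCat-WT replicate 2 or 3, or sißCat-mut replicate 2, with departures of -0.94 to -0.89. It was 0.0850, with a departure of -0.89, without the first arrays of both sißCat-mut and sißCat-both, an alternative chosen after seeing the data. For AGXT the sum was -0.50 and the measured change 1.06, a departure of 1.56 ± 0.20, and for ASS1 the sum was -0.52 and the measured change 0.75, a departure of 1.26 ± 0.16 (limma adjusted p = 0.000199 for each). Over all genes the departure passed the test in 16.4%, positive in 1131 genes and negative in 1308. The HAL departure includes the sißCat-WT level at the floor, and a compressed fall there makes it more negative, so its size is uncertain.

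The other steps of histidine breakdown were each measured. UROC1, urocanate hydratase, which takes the product of HAL, fell by 0.70 ± 0.10 after sißCat-WT and rose by 0.80 ± 0.10 after sißCat-mut and 0.78 ± 0.10 after sißCat-both (limma adjusted p = 0.000566, 5.43e-05 and 3.94e-05). Its levels were 5.96, 6.02 and 5.63 on the sißCat-WT arrays, 7.42, 7.45 and 7.26 on the sißCat-mut arrays, 7.45, 7.23 and 7.39 on the sißCat-both arrays, and 6.56, 6.60 and 6.57 on the siCtrl arrays. UROC1 had the directions of HAL in these 3 comparisons at a smaller size, but its difference between sißCat-both and sißCat-mut was -0.02 ± 0.10 and did not pass, and its departure from additivity was positive at 0.68 ± 0.14 (limma adjusted p = 0.00516). AMDHD1 and FTCD were, like HAL, lower after sißCat-both than after sißCat-mut, with log2 differences of -0.70 ± 0.10 and -0.50 ± 0.10 (limma adjusted p = 0.000288 and 0.00208). AMDHD1, which opens the imidazole ring, fell by 0.52 ± 0.10 after sißCat-both (limma adjusted p = 0.00135), with differences of -0.27 after sißCat-WT and 0.18 after sißCat-mut that did not pass. FTCD, which hands the remaining one-carbon unit to folate, rose by 0.80 after sißCat-mut and 0.30 after sißCat-both, and its difference of -0.27 after sißCat-WT did not pass. Counted with HAL, 0 of the 4 genes rose and 2 fell after sißCat-WT (median -0.49), 3 rose and 0 fell after sißCat-mut (median 0.80), and 3 rose and 1 fell after sißCat-both (median 0.54). Without HAL, 1 of 3 fell after sißCat-WT, 2 rose and 0 fell after sißCat-mut, and 2 rose and 1 fell after sißCat-both. The medians over all genes were 0.005, 0.011 and -0.006, and 10.2%, 25.6% and 33.6% of all genes were called.

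Of 8 urea cycle genes 5 were measured, and OTC, which makes the citrulline that ASS1 uses, moved furthest. OTC fell by 1.44 ± 0.19 after sißCat-WT, to levels of 3.59, 4.09 and 4.26 against 5.15, 5.48 and 5.61 after siCtrl, so its fall ended under the array medians. It rose by 0.86 ± 0.19 after sißCat-mut and 2.73 ± 0.19 after sißCat-both (limma adjusted p = 0.000328, 0.00398 and 1.70e-07 for the 3 knockdowns). As for ASS1, the OTC level was higher after sißCat-both than after sißCat-mut, by 1.88 ± 0.19 (limma adjusted p = 1.32e-05). ASL, which splits the product of ASS1 into arginine and fumarate, went the other way in that comparison: it was lower after sißCat-both, with a difference of -0.58 ± 0.14 (limma adjusted p = 0.00763), having risen by 1.12 after sißCat-mut and 0.54 after sißCat-both against siCtrl. NAGS, which makes the activator of the first urea cycle enzyme, rose by 0.49 after sißCat-mut and 1.31 after sißCat-both, and the mitochondrial ornithine carrier SLC25A15 rose by 0.47 after sißCat-both.

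After sißCat-WT the differences of ASL, NAGS and SLC25A15 were -0.26, -0.14 and -0.20 and did not pass, so OTC and ASS1 were the 2 of 5 that fell, with 0 rising (median -0.26). After sißCat-mut 3 of 5 rose and 0 fell (median 0.49), with SLC25A15 at -0.09 beside ASS1 among those that did not pass. After sißCat-both 5 of 5 rose (median 0.75). Without ASS1, 1 of 4 fell after sißCat-WT, 3 rose after sißCat-mut and 4 rose after sißCat-both. Beside these counts, 10.2%, 25.6% and 33.6% of all genes were called in either direction, with medians of 0.005, 0.011 and -0.006. The departure from additivity was positive for OTC (3.31 ± 0.27), NAGS (0.97 ± 0.17) and SLC25A15 (0.76 ± 0.12) as for ASS1, and that of ASL (-0.32 ± 0.19) did not pass (limma adjusted p = 5.03e-06, 0.00133, 0.000733 and 0.319).

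Around AGXT, 15 of 18 listed genes of glyoxylate, glycine and serine metabolism were measured. Of all genes 10.2% were called after sißCat-WT, 25.6% after sißCat-mut and 33.6% after sißCat-both, with medians of 0.005, 0.011 and -0.006. Without AGXT, 0 of 14 rose and 5 fell after sißCat-WT. In the same 14 genes 5 rose and 1 fell after sißCat-mut, and 6 rose and 4 fell after sißCat-both. After sißCat-WT 6 fell and 0 rose (median -0.33): AGXT was followed by PIPOX, a peroxisomal oxidase of sarcosine and pipecolic acid, at -0.90 ± 0.09, PRODH2, which starts the breakdown of hydroxyproline, at -0.78 ± 0.12, and GNMT, which methylates glycine, at -0.51 ± 0.11. After sißCat-mut 6 rose and 1 fell (median 0.26), with GNMT at 1.34 ± 0.11, AGXT2, a mitochondrial aminotransferase that also uses glyoxylate, at 1.06 ± 0.12 and PRODH2 at 0.77 ± 0.12. After sißCat-both 7 rose and 4 fell (median 0.15), with AGXT2 at 2.24 ± 0.12, GNMT at 1.92 ± 0.11 and DMGDH, which demethylates dimethylglycine, at 0.98 ± 0.12. The 4 that fell after sißCat-both were GCSH and AMT, parts of the glycine cleavage system, and the serine hydroxymethyltransferases SHMT1 and SHMT2 (-0.93, -0.27, -0.59 and -0.46), of which SHMT2 was also the 1 that fell after sißCat-mut. AGXT2 started from a siCtrl level of 4.76, at the array floor, and GCSH was at 4.45 after sißCat-both, under the array medians.

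**Figure D3:**
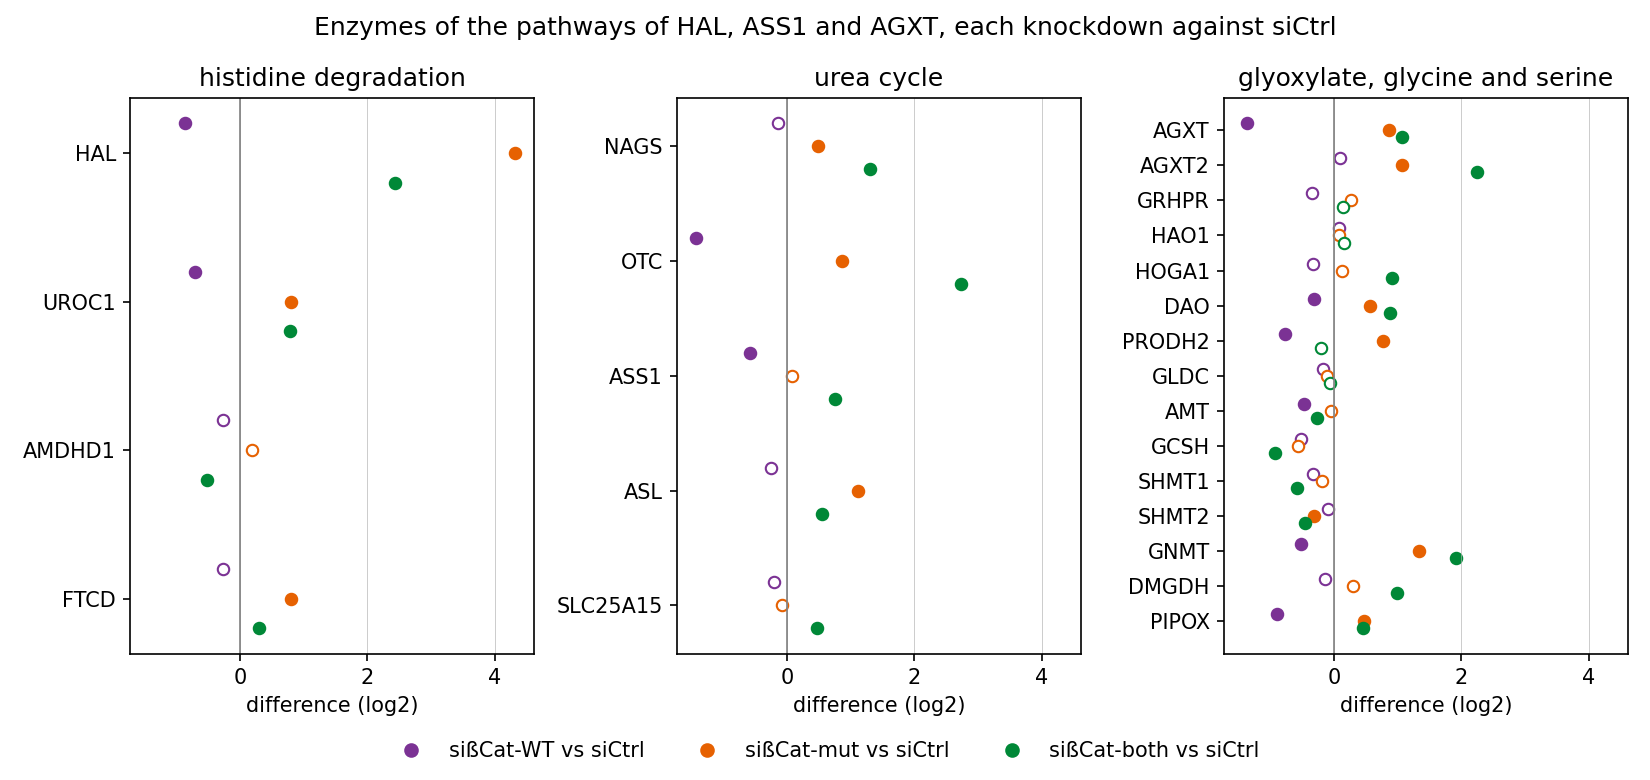
Log2 difference from siCtrl (horizontal axis) of the measured genes of histidine degradation, of the urea cycle and of glyoxylate, glycine and serine metabolism after each of the 3 knockdowns; filled points passed a limma adjusted p of 0.05 and open points did not. All filled sißCat-WT points lie left of 0, HAL at 4.32 and OTC at 2.73 mark the largest rises, and GCSH, SHMT1, SHMT2 and AMT fall after sißCat-both.

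Over the wider list of portal-side amino acid breakdown, which holds the 3 enzymes, 14 of 25 genes were measured. After sißCat-WT 7 fell and 0 rose (median -0.35), after sißCat-mut 9 rose and 0 fell (median 0.45), and after sißCat-both 9 rose and 0 fell (median 0.64), beside 10.2%, 25.6% and 33.6% of all genes called in either direction. Without HAL, AGXT and ASS1 the counts over 11 genes were 4 lower, 7 higher and 6 higher in these 3 knockdowns, with medians of -0.26, 0.42 and 0.38. These 11 include OTC, ASL and NAGS, already counted with the urea cycle above, so the lists are not independent. OTC was among the 4 that fell, and OTC, ASL and NAGS each rose after both sißCat-mut and sißCat-both. KYNU, kynureninase of tryptophan breakdown, fell by 1.24 ± 0.11 after sißCat-WT and rose by 0.42 ± 0.11 and 1.07 ± 0.11 after sißCat-mut and sißCat-both. TAT, tyrosine aminotransferase, rose by 1.09 ± 0.18 and 1.40 ± 0.18 after sißCat-mut and sißCat-both, with a difference of -0.31 after sißCat-WT that did not pass.

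Genes of the central-vein side changed in both directions. Of 16 listed 7 were measured: 2 rose and 2 fell after sißCat-WT, 1 rose and 3 fell after sißCat-mut, and 1 rose and 2 fell after sißCat-both (medians -0.03, -0.03 and -0.14). With 10.2%, 25.6% and 33.6% of all genes called in these comparisons and 7 genes measured, the counts are too small to set the zone apart. LGR5, AXIN2 and, after sißCat-mut, the transcription factor TBX3 (-0.37 ± 0.09) were those that fell with the truncated form targeted. The enzymes of nitrogen handling on that side did otherwise: GLUL, which makes glutamine, differed by -0.03 ± 0.08 after sißCat-mut and 0.18 ± 0.08 after sißCat-both, neither passing, and fell by 0.28 ± 0.08 after sißCat-WT. OAT, ornithine aminotransferase, rose by 0.99 ± 0.09 after sißCat-both, with levels of 9.36, 9.30 and 9.39 against 8.40, 8.33 and 8.37 after siCtrl, and its differences after sißCat-WT (-0.04) and sißCat-mut (0.04) did not pass. RGN, regucalcin, fell by 0.73 after sißCat-WT and rose by 0.29 after sißCat-mut, and AHR, a receptor, and TBX3 rose by 0.36 and 0.52 after sißCat-WT.

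The profiles of the 3 enzymes were also set against every other named gene, 12528 in all, by the root mean square difference over the 12 arrays after each gene's siCtrl mean was subtracted. Nearest to HAL were GAST (gastrin) at 0.695, PGLYRP2, a serum enzyme that cleaves peptidoglycan, at 0.77, the cytidine deaminase CDA at 1.09, the transcription factor SNAI2 at 1.13 and the pantetheinase VNN1 at 1.15. Of these GAST and VNN1 shared with HAL a higher mean after sißCat-mut than after sißCat-both by more than 1 on the log2 scale, with mean changes of 3.58 and 1.92 for GAST and 3.48 and 0.57 for VNN1. AGXT was nearest to SMLR1 (0.24), FNDC4 (0.25), the coagulation factor F11 (0.27), the ephrin receptor EPHA1 (0.27) and KYNU (0.28). ASS1 was nearest to AMOT (angiomotin, 0.12), the cytochrome CYB5A (0.13), the lysine-degrading enzyme AASS (0.15), catalase CAT (0.16) and TMEM41A (0.16). Among the 3 themselves AGXT and ASS1 differed by 0.59, HAL and AGXT by 1.91 and HAL and ASS1 by 2.31. Genes with small changes lie nearer to each other on this measure, so the values are not comparable between the 3.

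**Figure D4:**
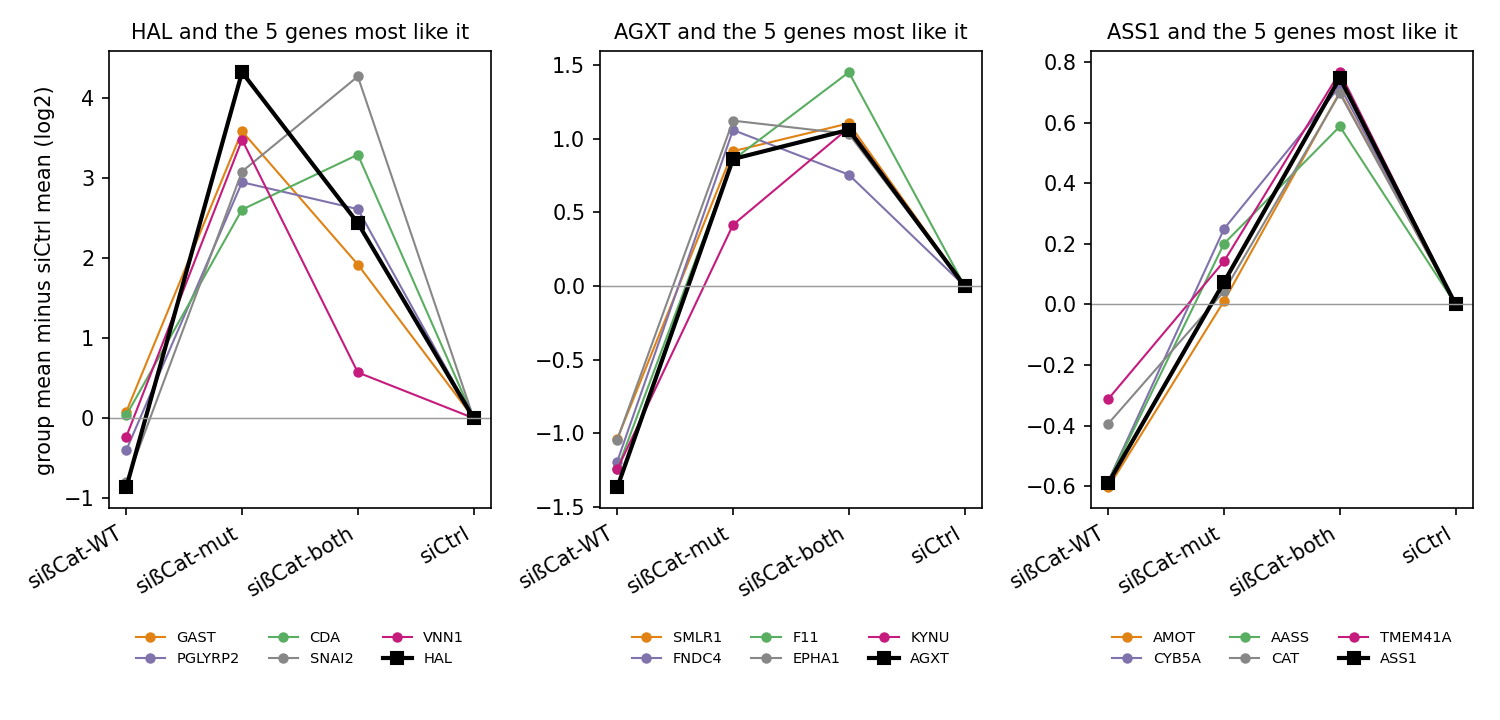
Group mean minus siCtrl mean on the log2 scale (vertical axis) for HAL, AGXT and ASS1 (black squares) and the 5 genes with the smallest root mean square difference from each over the 12 arrays; lines only join the points of a gene, siCtrl is 0 by construction, and the vertical scales differ. The 5 genes differ by 0.695 to 1.15 from HAL, by 0.235 to 0.28 from AGXT and by 0.123 to 0.163 from ASS1, ranges that are not comparable between the 3.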

How the data were processed

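Biotin-labelled cDNA from HepG2 RNA was read on Affymetrix arrays (per the labels' protocols). The authors deposited log2 values for 53617 probe sets, and the submitters' processing notes name RMA and Affymetrix Expression Console 1.1. RMA evens out the arrays' distributions, which would hide a shift common to most genes, and it compresses changes close to the floor. The log2 scale was read from the range of the values, and the sources used here do not name library files or a genome build. The number of arrays limits the precision.

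An annotation table of the platform gave 1 gene symbol to 16098 probe sets and several to 0, and left 37519 unlisted, which are unnamed here. RefSeq held all 16098 gene identifiers. For 779 genes with several probe sets the one with the highest mean was used, leaving 14884 genes without a filter on dim ones. A limma model (version 3.58.1 in R 4.3.3, lmFit then eBayes) held the 4 group means over the 12 arrays, with 8 residual degrees of freedom. The 7 contrasts were tested two-sided, with Benjamini-Hochberg adjustment over all genes within each and calls at an adjusted p under 0.05.

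The 3 genes, the 13 gene lists (5 of cell type markers) and the motifs were chosen with earlier results of these data known. Lists are described by counts and medians without a test of the list. The text names every measured gene of histidine degradation and the urea cycle. Of other lists it names up to 4 called members with the largest changes whose arrays did not overlap, plus single members that make up a small count, chosen after their values were seen. It also names the 5 genes most like each enzyme, leaving out open reading frame, LOC, LINC, MIR, SNOR and antisense symbols. The steps were tested on simulated data for sißCat-WT against siCtrl over 14884 genes: 76.1% of 67 genes changed by 0.5 on the log2 scale, 97% of 67 changed by 1 and 100% of 66 changed by 2 were recovered, with 12 false calls among 194. The simulated noise was normal and independent between arrays, without compression at the floor, and few genes were changed. These rates check the steps and need not hold for the real comparisons.

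The deviations of same-numbered arrays correlated weakly in all 3 pairs for sißCat-both against sißCat-WT (r = 0.115, 0.155 and 0.134). Arrays of different numbers were not compared, so these values do not show that the numbers pair the arrays. The labels do not state a pairing. In each of the other pairs of groups at least 1 correlation was under 0.1, but replicate 3 of sißCat-WT against siCtrl reached 0.189. Alternatives were another normalization, centring, a filter on the lowest 40th percentile, the mean of probe sets, other priors, only the groups compared, the replicate block, array weights and leaving out arrays. Promoter windows come from RefSeq, GRCh38.p14. Figures were drawn with matplotlib 3.10.9.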

Additional observations from a re-analysis of the deposited data

Results flagged for a closer look

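The change after sißCat-both differed from the sum of the changes after sißCat-WT and sißCat-mut, by the departure from additivity (sißCat-both minus sißCat-WT minus sißCat-mut plus siCtrl). This compares 3 different siRNAs whose knockdowns were not measured here. It was -1.02 on the log2 scale for HAL, 1.56 for AGXT and 1.26 for ASS1, each past the test as reported. The sißCat-WT level of HAL lay at the array floor, where a compressed fall makes the departure more negative, so the size for HAL is uncertain. The HAL call ended without any of 5 arrays, as given with its values above. Groups of 3 arrays were too small for a check of single outlying arrays.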

How the results depend on the processing

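Each of the 18 differences of HAL, AGXT and ASS1 between 2 groups had the same direction and call under 22 alternatives, and the departures from additivity of AGXT and ASS1 under 21. The departure of HAL ranged from -1.23 to -0.89 when single arrays were left out and was -0.89 without the first arrays of both sißCat-mut and sißCat-both; fewer arrays entered these fits. The change of HAL after sißCat-WT came nearest to the threshold, with -0.65 and an adjusted p of 0.0460 without siCtrl replicate 3 and -0.70 and 0.0458 without sißCat-WT replicate 1. The mean ASS1 level after sißCat-both was 10.49 after renewed quantile normalization, against 10.44 as deposited. Of all genes 1513 were called for sißCat-WT against siCtrl, and 917 to 1616 with single arrays left out, with 950 without siCtrl replicate 2, 917 without sißCat-WT replicate 2 and 957 without sißCat-WT replicate 3. With the replicate number as a block, the values for sißCat-both against sißCat-WT were 3.30 ± 0.18 for HAL, 2.43 ± 0.09 for AGXT and 1.34 ± 0.08 for ASS1. Without the block their SEs were 0.19, 0.14 and 0.12 in the same order. The block changed no call of the 3 genes in any comparison. Of 48 counts of list members 8 moved by over 1.5 times under some alternative, each from a count of 1 or 2. Signal near the array floor limits what can be said of HAL and OTC after sißCat-WT, of AGXT2 and PCK1 after siCtrl, of GCSH after sißCat-both and of the endothelial markers. The same holds for the macrophage marker CD163 in every group.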

Other observations

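Genes that use arginine or citrulline beyond the urea cycle were measured in 7 of 11 cases, ASS1 and ASL included. After sißCat-WT 0 rose and 1 fell (ASS1), after sißCat-mut 2 rose and 1 fell, and after sißCat-both 4 rose and 2 fell (medians -0.08, 0.04 and 0.54). Without ASS1, 0 of 6 were called after sißCat-WT, 2 rose and 1 fell after sißCat-mut, and 3 rose and 2 fell after sißCat-both. Among all genes 10.2%, 25.6% and 33.6% were called, so the count after sißCat-WT is near that of genes at large. GATM, which starts creatine synthesis from arginine and glycine, rose by 1.12 ± 0.13 after sißCat-mut and 0.54 ± 0.13 after sißCat-both. ODC1, which makes polyamines from ornithine, fell by 0.42 ± 0.08 and 0.55 ± 0.08 in the same knockdowns, and the endothelial nitric oxide synthase NOS3 fell by 0.67 ± 0.09 after sißCat-both (SE over 3 arrays a group; for NOS3 limma gave an adjusted p = 5.50e-05).

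Of 14 portal-side genes outside amino acid metabolism 7 were measured. Of these 1 was higher and 2 lower after sißCat-WT, 5 higher and 0 lower after sißCat-mut, and 5 higher and 0 lower after sißCat-both (medians -0.13, 1.37 and 0.57). The shares of all genes called in these comparisons were 10.2%, 25.6% and 33.6%, with medians of 0.005, 0.011 and -0.006. APOF, an apolipoprotein, fell by 0.60 after sißCat-WT and rose by 1.37 and 0.57 after sißCat-mut and sißCat-both. A1BG, a plasma glycoprotein, had changes of -0.62, 2.47 and 0.75 in the same order and, like HAL, was lower after sißCat-both than after sißCat-mut, with a log2 difference of -1.72. The haemopexin gene HPX rose in each (0.60, 2.20 and 3.18), and PCK1, of gluconeogenesis, rose by 1.57 and 1.36 after sißCat-mut and sißCat-both from a siCtrl level of 4.81, at the array floor.

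Of 28 listed regulators of hepatic amino acid enzymes 16 were measured. After sißCat-WT 0 rose and 2 fell, the nuclear receptor PPARA (-0.60 ± 0.10) and the insulin receptor INSR (-0.31 ± 0.08). After sißCat-mut 7 rose and 1 fell, and after sißCat-both 6 rose and 2 fell (medians -0.05, 0.28 and 0.15 over the 3 knockdowns). Over all genes 10.2% were called after sißCat-WT, 25.6% after sißCat-mut and 33.6% after sißCat-both, so the count after sißCat-WT is near that of genes at large. CREB3L3, a membrane-bound transcription factor of the fasting liver, rose by 1.63 and 2.31, ONECUT1 by 1.80 and 2.15 and PPARA by 0.89 and 1.39 after sißCat-mut and sißCat-both, while MYC fell by 2.44 and 2.57. KLF15, a factor that raises amino acid breakdown in mouse liver, rose by 1.62 ± 0.22 after sißCat-both, with a difference of 0.42 after sißCat-mut that did not pass.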
